A study of Mus musculus with 23 samples.

Results

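The posterior HoxA and HoxD genes are the homeobox transcription factor genes at the 5′ ends of 2 gene clusters: Hoxa9, Hoxa10, Hoxa11 and Hoxa13 on mouse chromosome 6, and Hoxd9, Hoxd10, Hoxd11, Hoxd12 and Hoxd13 on chromosome 2. Open chromatin around them was measured by ATAC-seq, in which a transposase inserts sequencing adapters into accessible DNA, in 23 libraries of mouse intestinal epithelium. A region was included when a peak in any library overlapped chr6:52170000-52240000 (mm9, Hoxa9 to Hoxa13) or chr2:74495000-74543000 (mm9, Hoxd13 to Hoxd9). Overlapping peaks were merged, which left 23 regions of 149024 in all, 11 in the HoxA window and 12 in the HoxD window. These regions were built from 74 peaks, 53 of them in the HoxA window and 21 in the HoxD window.

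The libraries form 8 groups by age and gut region. Juvenile duodenum came from mice 12 days old and was taken as whole epithelium, while juvenile colon came from mice 15 days old with 6 animals pooled per library. Adult mice were 90 days old and gave duodenal villus, duodenal crypt and colon libraries, and geriatric mice were 21 months old and gave duodenal villus, duodenal crypt and proximal colon libraries. Villus and crypt fractions were separated by passage through a strainer, and the adult and geriatric colon libraries each pooled 2 animals. Every group had 3 libraries except geriatric proximal colon, which had 2, numbered 1 and 3, because a library with poor DNA was set aside by the submitters. No strain, genotype, mutation or treatment is named in the labels, so whether any of these differs between groups is not given. The labels name the part of the colon for the geriatric mice alone, so part and age cannot be told apart in comparisons with that group.

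Hox genes lie in clusters whose order along the chromosome follows the order in which they are used along the body axis, with the 5′ genes used furthest towards the tail. In the gut, Hoxa13 and Hoxd13 are known for their part in forming the hindgut, from which much of the colon comes, and the duodenum forms far anterior to that domain. In cells that do not use them, posterior Hox genes are typically held silent by Polycomb repression. Hoxa9 is best known from blood progenitors, Hoxa10 and Hoxa11 from the uterus, Hoxa11 and Hoxd11 from the forearm and kidney, Hoxd9 and Hoxd10 from hindlimb motor neurons, and Hoxd12 and Hoxd13 from the digits.

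Reference promoters of the 9 genes were taken from RefSeq (build GRCm38.p6), from 250 bases before to 50 bases after each start, to show how the outermost genes of each posterior group differ in base composition. The 9 genes matched 11 promoters there. They held a median of 20 CpG dinucleotides, from 4 to 45, against a median of 7 over the 32851 promoters of that table. The promoters of 4 genes, the outermost of each posterior group, are printed 5′ to 3′ on the strand of the gene, with each CpG in capitals: Hoxa13 (chr6:52260831-52261130, minus strand), Hoxa9 (chr6:52227321-52227620, minus strand), Hoxd13 (chr2:74667975-74668274, plus strand) and Hoxd9 (chr2:74697513-74697812, plus strand).
Hoxa13 promoter: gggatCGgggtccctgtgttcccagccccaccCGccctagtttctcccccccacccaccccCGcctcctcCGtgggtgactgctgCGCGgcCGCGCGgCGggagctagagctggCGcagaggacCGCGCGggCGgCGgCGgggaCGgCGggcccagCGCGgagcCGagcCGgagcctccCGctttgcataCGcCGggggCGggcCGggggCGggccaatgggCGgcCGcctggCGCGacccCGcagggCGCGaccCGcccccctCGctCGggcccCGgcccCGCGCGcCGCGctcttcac
Hoxa9 promoter: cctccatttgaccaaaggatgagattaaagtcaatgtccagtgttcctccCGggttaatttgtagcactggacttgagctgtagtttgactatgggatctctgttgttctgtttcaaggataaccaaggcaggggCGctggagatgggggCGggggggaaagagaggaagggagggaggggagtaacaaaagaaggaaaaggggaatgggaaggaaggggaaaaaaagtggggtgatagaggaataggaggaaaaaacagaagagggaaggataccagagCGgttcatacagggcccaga
Hoxd13 promoter: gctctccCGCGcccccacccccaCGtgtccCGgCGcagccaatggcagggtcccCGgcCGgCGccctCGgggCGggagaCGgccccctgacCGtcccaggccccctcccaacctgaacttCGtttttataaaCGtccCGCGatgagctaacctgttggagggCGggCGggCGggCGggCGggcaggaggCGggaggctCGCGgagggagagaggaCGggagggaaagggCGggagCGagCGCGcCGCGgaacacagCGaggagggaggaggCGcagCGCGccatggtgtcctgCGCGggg
Hoxd9 promoter: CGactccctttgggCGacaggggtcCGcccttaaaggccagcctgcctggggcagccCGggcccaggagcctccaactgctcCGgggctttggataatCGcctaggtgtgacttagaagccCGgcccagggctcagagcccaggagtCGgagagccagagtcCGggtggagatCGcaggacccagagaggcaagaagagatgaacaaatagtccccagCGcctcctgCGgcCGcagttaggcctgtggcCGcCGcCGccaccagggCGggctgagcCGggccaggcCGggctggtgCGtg
The Hoxa13 promoter held 45 CpGs and the Hoxd13 promoter 37, more than 98.1% and 94.4% of all promoters of the table respectively. The Hoxa9 promoter printed here held 4 and the Hoxd9 promoter 20. The motif TTTATNG, searched on both strands, was in 0 of the 11 promoters and in 10.9% of all promoters of the table. The peaks are in mm9 coordinates and these promoters are not, so no peak was assigned to a promoter, exon or intron, and regions are named below by their distance in kb from the lower-coordinate end of their window. In the HoxA window that end is the Hoxa9 side, and in the HoxD window it is the Hoxd13 side. A side names an end of the window and not a distance to a gene. The outermost promoters of each group, printed above, lie closer together than their windows are long (70 kb for HoxA and 48 kb for HoxD). Parts of a window, such as the upper part of the HoxA window, may therefore lie beyond these genes.

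Peaks at the posterior HoxA genes were few and mostly weak, but more of them were called in colon. The value used for a region is its highest peak pileup, the number of extended reads stacked at the summit, per M (per-million) reads kept by the peak caller, with 0 where no peak was called. A 0 therefore means no called peak, not closed chromatin. The pileups of the 74 peaks were 6 to 58 reads with a median of 16, for which an exact Poisson 95% interval is 9.15 to 26 reads and covers counting error only. The median peak was 220 bp wide and ranked 74.3% of the way down its own library's list. When each list was reduced to its 11355 strongest peaks, the length of the shortest list, 9 of the 74 peaks were left, all 9 in the HoxA window and all 9 in colon libraries. Every duodenal list (35105 to 60519 peaks) was longer than every colon list (11355 to 32855). The cut thus removed a larger share of each duodenal list, which favours colon peaks in this count.

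Libraries differed in ways that touch every comparison below. Between 14.4 and 47.9 M reads per library were kept. Peak lists were longer in every duodenal library than in any colon library, as given above. The share of reads set aside by the caller as copies at one position was 0.41 to 0.69 in duodenum and 0.18 to 0.48 in colon. The lowest pileup of any peak, a floor under which nothing was called, was 0.205 to 0.476 per M. Over the 5226 regions with a peak in all 23 libraries, the median pileup per M was 0.471 in geriatric proximal colon 3 and 1.02 in geriatric proximal colon 1, against 0.919 to 1.31 in juvenile colon, 2.182 to 2.52 in adult colon and 0.650 to 2.44 in the 15 duodenal libraries. Geriatric proximal colon 3 also had the shortest list and no peak in either window, so results are given with and without that group where it changes them. Whether these differences play a part in the Hox results was not tested.

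In the HoxA window, the juvenile colon libraries had 3, 5 and 2 peaks, the adult colon libraries 4, 7 and 8, and the geriatric proximal colon libraries 1 and 0. The juvenile duodenum libraries had 0, 0 and 1, adult villus 5, 1 and 2, adult crypt 1, 1 and 2, geriatric villus 3, 2 and 0, and geriatric crypt 3, 1 and 1. Adult colon had the highest counts, and juvenile colon 2 and adult villus 1 overlapped its range. Summed over the HoxA window, pileup per M had a median of 2.68 in colon (0 to 6.92, n = 8) and 0.599 in duodenum (0 to 3.34, n = 15). The peaks covered 10257 bp in colon and 4801 bp in duodenum, summed over libraries. Adult villus 1 and geriatric villus 1, the duodenal libraries with the largest sums, were also those with the highest pileup at the shared regions.

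In the HoxD window, peaks were fewer and most were seen in a single library. The juvenile colon libraries had 5, 4 and 1 peaks, adult colon 0, 2 and 0, and geriatric proximal colon 0 and 0. The 15 duodenal libraries had 9 peaks together, with at most 2 in one library and none in 8 libraries. No HoxD peak was among the 11355 strongest of its library.

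**Figure D1:**
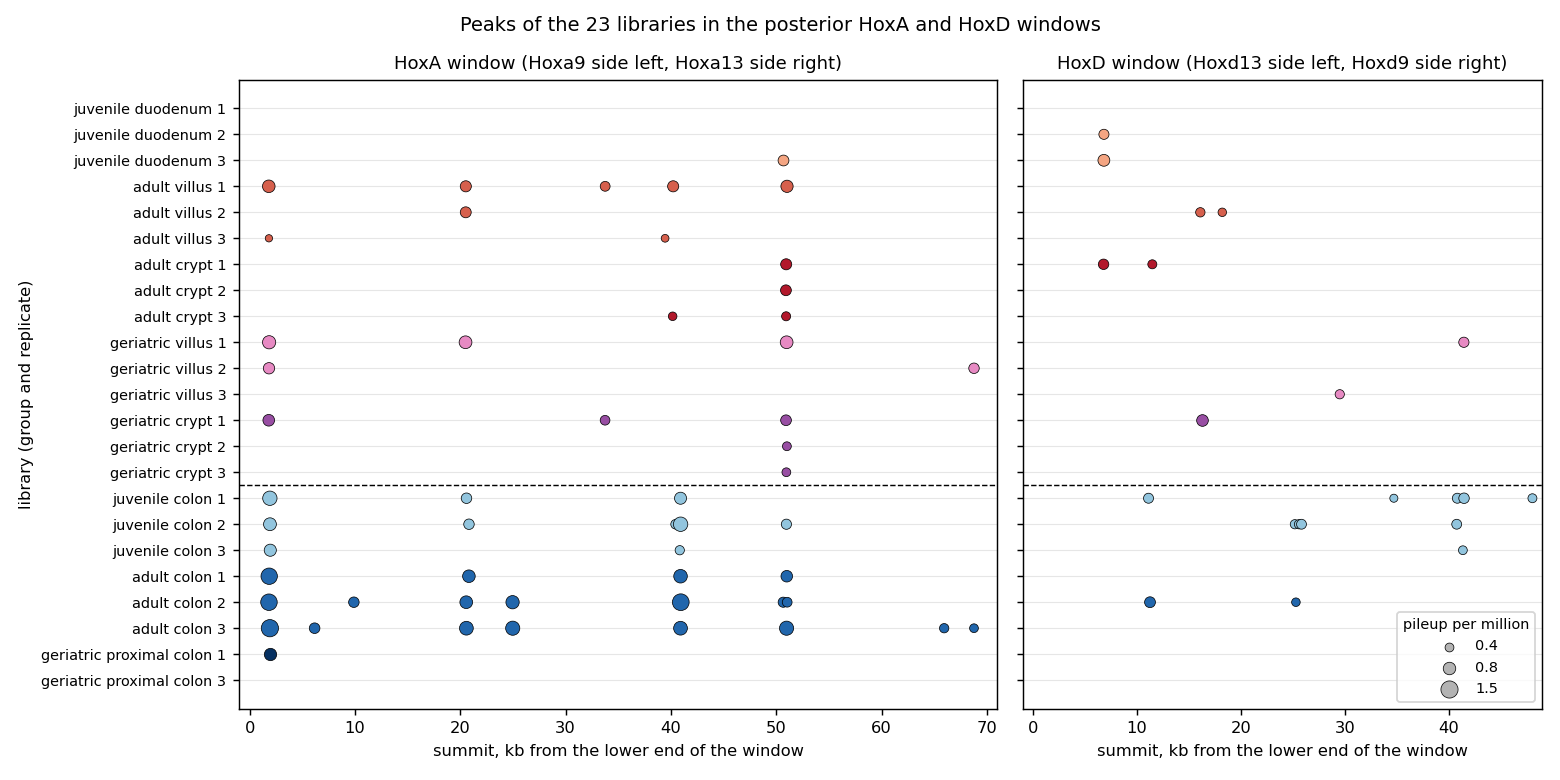
Peaks of every library in both windows; the x axis is the summit position in kb from the lower end of the window, rows are libraries with duodenum above the dashed line and colon below, and the area of a point is its pileup per M kept reads. The columns of points at HoxA +1.5 and +40.1 kb are fullest in juvenile and adult colon, the column at HoxA +50.6 kb runs through all 6 crypt libraries, and the HoxD points are scattered.

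Of the 23 regions, 11 had a peak in 1 library only and were not tested, 4 in the HoxA window and 7 in the HoxD window. The other 12, 7 HoxA and 5 HoxD, were tested among the 85469 regions with a peak in at least 2 libraries. Tests were made with limma on log2(pileup per M + 0.2), with p-values adjusted by the Benjamini-Hochberg method over all 85469 regions and a threshold of 0.05. That scale understates folds of low values. Where a group has no peak at all, the log2 difference, its SE and its p-value depend on the 0.2 added. Differences printed for such groups are therefore not measured folds. Libraries without a peak all take the same value, so a group at 0 adds no spread, and p-values at such regions may be too small. A region had to have a peak in at least 2 libraries to be tested, so counts over the tested regions describe them and lend them no support. Counts at an unadjusted p under 0.05 have no share of all regions beside them, because that share was not counted.

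Against duodenum as a whole, colon was higher at HoxA +1.5 kb, HoxA +40.1 kb and HoxD +40.6 kb and lower at none of the 12 regions. That is 3 of 12 regions higher, where 2.29% of all tested regions were called higher and 37.5% lower. Of these 3, HoxD +40.6 kb had colon peaks in juvenile colon alone, and its call was lost without any one of 21 libraries. The median difference was 0.56 over the 7 HoxA regions and 0.36 over the 5 HoxD regions, against -0.47 over all 85469. With absent peaks set to each library's floor the medians were 0.26, 0.045 and -0.18. With every list cut to its 11355 strongest peaks, the share of higher among all called regions rose from 5.76% to 36.8%, and 1 Hox region, HoxA +1.5 kb, remained called. Without the geriatric proximal colon group 5 Hox regions were called, with HoxA +20.4 kb and HoxA +24.9 kb in addition.

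The region at HoxA +1.5 kb (chr6:52171510-52172253, mm9), nearest the Hoxa9 side, had the highest pileup per M among the 23 regions of the windows. Pileup per M was 1.05, 0.843 and 0.752 in juvenile colon, 1.37, 1.39 and 1.52 in adult colon, and 0.779 and 0 in geriatric proximal colon. In duodenum it was 0.812, 0 and 0.274 in adult villus, 0.892, 0.660 and 0 in geriatric villus, 0.695, 0 and 0 in geriatric crypt, and 0 in all 3 libraries of both juvenile duodenum and adult crypt. Juvenile and adult colon did not overlap juvenile duodenum or adult crypt, while juvenile colon overlapped both villus groups. The colon minus duodenum difference was 1.51 ± 0.380 (log2, SE; limma adjusted p = 0.00391), and it was called in all 13 alternative analyses and without each of the 23 libraries. A peak was present in 7 of 8 colon and 5 of 15 duodenal libraries (two-sided Fisher's exact test, p = 0.0272, adjusted p = 0.156). Summits lay within 139 bp of each other in colon and within 34 bp in duodenum, with medians 92 bp apart.

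The region at HoxA +40.1 kb (chr6:52210119-52211060) had a peak in 6 of 8 colon and 2 of 15 duodenal libraries. Values were 0.744, 1.06 and 0.439 in juvenile colon, 0.941, 1.43 and 0.969 in adult colon and 0 and 0 in geriatric proximal colon. The duodenal values were 0.632 in adult villus 1, 0.377 in adult crypt 3 and 0 in the other 13. Adult colon lay above every duodenal library, and juvenile colon 3 lay below adult villus 1. The difference was 1.39 ± 0.256 (log2, SE; limma adjusted p = 0.000309). It was no longer called with lists of equal length, where it was 0.88 with an adjusted p of 0.0616.

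The duodenal peaks of HoxA +40.1 kb were not at the place of the colon peaks. Their summits were at 52210161 and 52210211, and the median colon summit was 724 bp away, at 52210910. The 2 sets were joined into 1 region by a second, smaller peak of juvenile colon 2. When regions were merged from 100 bp on each side of the summits instead, a choice made after the data were seen, the colon place had a peak in 6 of 8 colon and 0 of 15 duodenal libraries (two-sided Fisher's exact test, adjusted p = 0.00669). As merged from whole peaks, the presence test gave an adjusted p of 0.0586.

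Presence alone, by Fisher's exact test, called 0 of the 12 regions at an adjusted p under 0.05, with 2 at an unadjusted p under 0.05 (HoxA +1.5 and +40.1 kb), where limma called 3. Over all regions 0.253% were called more often present in colon and 9.32% less often, both at the adjusted threshold. The share of all regions at an unadjusted p under 0.05 was not counted. Without adult villus 1, adult crypt 3, geriatric proximal colon 1 or geriatric proximal colon 3, each left out alone, presence called 1 Hox region.

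The region at HoxA +20.4 kb (chr6:52190413-52190962) was seen in colon and in villus. Values were 0.564, 0.562 and 0 in juvenile colon, 0.813, 0.827 and 0.969 in adult colon, 0 and 0 in geriatric proximal colon, 0.632, 0.613 and 0 in adult villus, and 0.832, 0 and 0 in geriatric villus. All 6 crypt libraries and all 3 juvenile duodenum libraries were at 0. Adult colon overlapped geriatric villus, through its first library, and no other duodenal group. The colon minus duodenum difference was 0.80 ± 0.330 (log2, SE; limma adjusted p = 0.0606). It passed the threshold without the geriatric proximal colon group, at 1.42 with an adjusted p of 0.00683. It also passed without adult villus 1 (limma adjusted p = 0.0448), adult villus 2 (0.0464), geriatric villus 1 (0.00941) or juvenile colon 3 (0.0164).

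The region at HoxA +24.9 kb (chr6:52194873-52195110) had peaks in adult colon 2 and 3 only, at 0.902 and 1.02 per M, and all other 21 libraries were at 0. Its colon minus duodenum difference was 0.56 ± 0.228 (log2, SE; limma adjusted p = 0.0574), and it passed without adult colon 1, its library at 0 (0.85, adjusted p = 8.33e-08), and without the geriatric proximal colon group (0.85, adjusted p = 0.0182). In the fit without adult colon 1, the only spread left at this region was between adult colon 2 and 3. The region entered the tests only through these peaks of adult colon. Its calls in comparisons with adult colon, given below, follow from the values that selected it and lend it no support.

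The region at HoxA +50.6 kb (chr6:52220597-52221157), in the upper part of the window, did not follow the colon. It had a peak in 13 libraries, the most of any Hox region, 4 in colon and 9 in duodenum. Values were 0.626, 0.599 and 0.419 in adult crypt and 0.588, 0.402 and 0.395 in geriatric crypt, so that all 6 crypt libraries had a peak. Villus had one in a single library of each age, at 0.767 in adult villus 1 and 0.832 in geriatric villus 1, and juvenile duodenum had one in library 3, at 0.599. Adult colon was at 0.685, 0.526 and 1.02, juvenile colon at 0, 0.531 and 0, and geriatric proximal colon at 0 and 0. Adult colon overlapped adult crypt. The colon minus duodenum difference was -0.22 ± 0.387 (log2, SE; limma adjusted p = 0.630), and it turned to 0.25 without the geriatric proximal colon group (adjusted p = 0.636).

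The last 2 tested HoxA regions were weak. HoxA +33.5 kb (chr6:52203518-52203858) was at 0.496 in adult villus 1 and 0.481 in geriatric crypt 1 and at 0 elsewhere (difference -0.24, limma adjusted p = 0.369). HoxA +68.7 kb (chr6:52238703-52238870), nearest the upper end of the window, was at 0.561 in geriatric villus 2 and 0.393 in adult colon 3 (difference 0.046, limma adjusted p = 0.865). The 4 HoxA regions of 1 library were at 0.308 to 0.576, 3 in adult colon and 1 in adult villus, the highest at HoxA +6 kb (chr6:52176035-52176272) in adult colon 3.

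**Figure D2:**
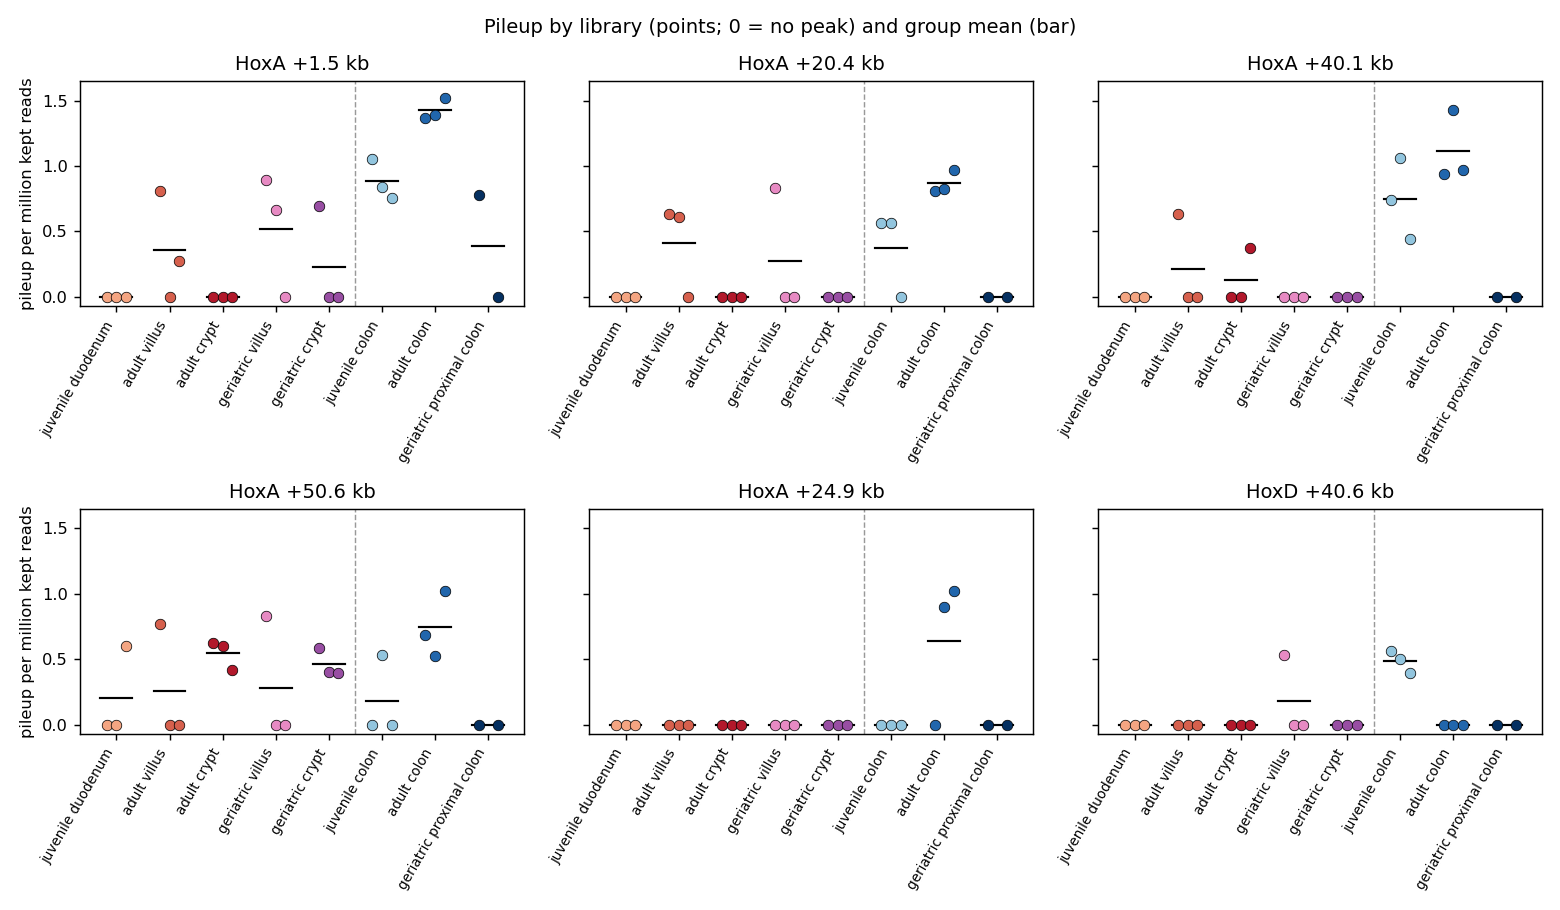
Pileup per M kept reads (y axis) in every library (points) and its group mean (bar) at 6 Hox regions, with duodenal groups left of the dashed line and colon groups right of it. Adult colon lies at 1.37 to 1.52 at HoxA +1.5 kb, above every other library, whereas at HoxA +50.6 kb it overlaps the crypt libraries and at HoxD +40.6 kb it is at 0.

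The region at HoxD +40.6 kb (chr2:74535650-74536585), towards the Hoxd9 side, was the only region of the HoxD window with a peak in every library of a group. Values were 0.564, 0.50 and 0.397 in juvenile colon, 0.535 in geriatric villus 1, and 0 in the remaining 19 libraries, all adult colon and geriatric proximal colon libraries among them. Geriatric villus 1 lay within the range of juvenile colon. The colon minus duodenum difference was 0.47 ± 0.181 (log2, SE; limma adjusted p = 0.0479), and it was lost without any one of 21 libraries, all except adult villus 3 and geriatric villus 1 (adjusted p up to 0.107). It was called in 5 of the 11 alternatives that gave it a value. It was lost when absent peaks were set to the floor (0.15, adjusted p = 0.358), with summit-based regions (0.26, 0.362), with a pseudocount of 1 (0.15, 0.0668), with no filter (0.47, 0.0944) and with no variance trend (0.47, 0.0515), among others. The peaks of this region did not share one summit: the colon and duodenal median summits were 361 bp apart, and juvenile colon 1 had 2 peaks in it.

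The other 4 tested HoxD regions passed no threshold in this comparison. HoxD +6.8 kb (chr2:74501761-74501893), on the Hoxd13 side, was at 0.523 in juvenile duodenum 2, 0.718 in juvenile duodenum 3 and 0.556 in adult crypt 1, and at 0 in every colon library (difference -0.40 ± 0.250 log2, SE; limma adjusted p = 0.219; -0.53 and 0.0294 without juvenile duodenum 1). HoxD +10.9 kb (chr2:74505912-74506375) was at 0.513 in juvenile colon 1 and 0.601 in adult colon 2 (difference 0.43, limma adjusted p = 0.175). HoxD +16 kb (chr2:74511037-74511302) was at 0.450 in adult villus 2 and 0.695 in geriatric crypt 1 (difference -0.26, limma adjusted p = 0.369). These were scattered over groups with 1 library each, apart from juvenile duodenum at HoxD +6.8 kb.

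HoxD +25.1 kb (chr2:74520118-74520298) was at 0.437 in juvenile colon 2 and 0.376 in adult colon 2 (difference 0.36, limma adjusted p = 0.181). The 7 HoxD regions of 1 library were at 0.333 to 0.50, 4 of them in juvenile colon. The highest 3 were HoxD +25.8 kb (chr2:74520766-74520912) at 0.50 and HoxD +25.5 kb (chr2:74520547-74520701) at 0.437, both in juvenile colon 2, and HoxD +29.4 kb (chr2:74524432-74524558) at 0.437 in geriatric villus 3. Another, chr2:74542948-74543123 in juvenile colon 1, straddled the edge of the window.

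**Figure D3:**
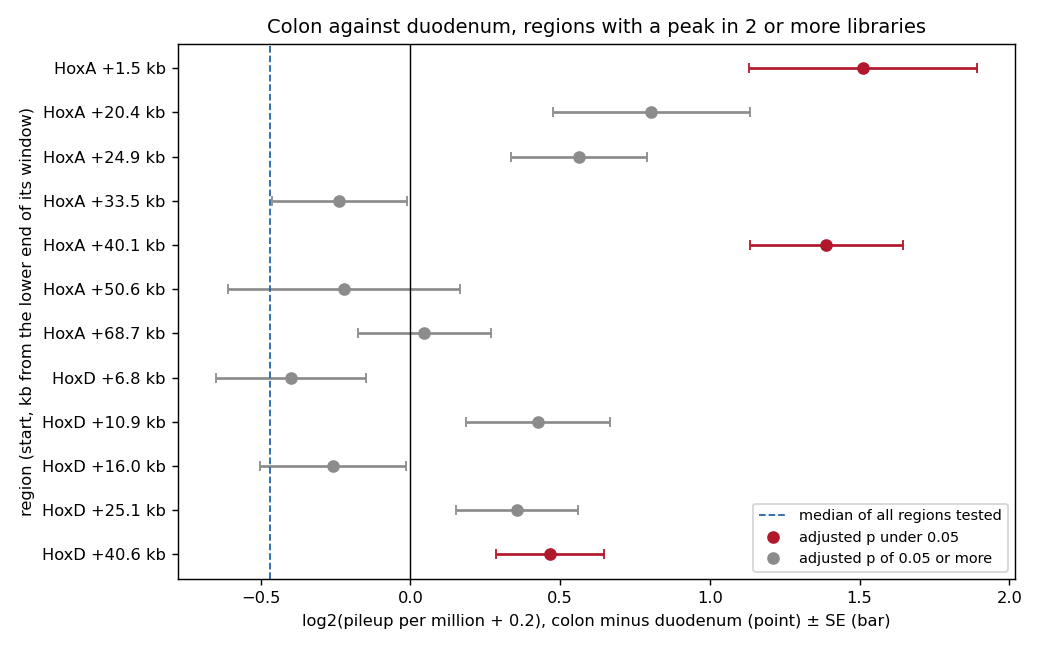
Difference between colon and duodenum on the log2(pileup per M + 0.2) scale (x axis; points with SE bars) for the 12 tested Hox regions, against the median of all 85469 tested regions (dashed line, -0.47). HoxA +1.5 kb at 1.51 and HoxA +40.1 kb at 1.39 stand furthest to the right, and HoxD +40.6 kb, at 0.47, is the third region past the threshold. Its colon peaks were in juvenile colon alone.

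Within one age, the question was whether colon differed from duodenal epithelium of mice of the same stage. In juvenile mice, HoxA +1.5 kb, HoxA +40.1 kb and HoxD +40.6 kb were higher in colon and HoxD +6.8 kb was lower. Juvenile colon averaged 0.882 ± 0.153 per M at HoxA +1.5 kb, 0.748 ± 0.312 at HoxA +40.1 kb and 0.487 ± 0.0843 at HoxD +40.6 kb (SD, n = 3), and juvenile duodenum was at 0 in all 3 libraries at each. The differences were 2.43 ± 0.70, 2.19 ± 0.472 and 1.77 ± 0.333 (log2, SE; limma adjusted p = 0.0120, 0.00160 and 0.000464). At HoxD +6.8 kb juvenile duodenum averaged 0.414 ± 0.371 (SD, n = 3) and colon was at 0, a difference of -1.35 ± 0.462 (SE; limma adjusted p = 0.0332). Over all tested regions 0.997% were called higher and 28.0% lower in this contrast. With absent peaks set to the floor, HoxA +1.5 kb alone remained called (1.02, limma adjusted p = 0.0275). The juvenile groups differed in age by 3 days as well as in region, so age and region cannot be told apart here.

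In adult mice, colon was higher than villus at HoxA +24.9 kb (1.69 ± 0.420, limma adjusted p = 0.00827) and HoxA +40.1 kb (2.01 ± 0.472, adjusted p = 0.00549). HoxA +24.9 kb was tested only because of its peaks in adult colon 2 and 3, and adult colon 1 had none. The same limit holds for its calls against crypt and against the other colon groups. Adult colon averaged 1.11 ± 0.274 per M at HoxA +40.1 kb and adult villus 0.211 ± 0.365 (SD, n = 3). HoxA +1.5 kb had a difference of 1.83 ± 0.70 that missed the threshold (limma adjusted p = 0.0787), its means being 1.43 ± 0.0811 in colon and 0.362 ± 0.413 in villus (SD, n = 3). That is 2 of 12 Hox regions higher, where 4.42% of all tested regions were higher. The count was 4 without adult villus 1 and 1 without adult colon 2 or adult colon 3.

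Against adult crypt, adult colon was higher at 4 HoxA regions: +1.5 kb (3.02 ± 0.70 log2, SE; limma adjusted p = 0.00531), +20.4 kb (2.42 ± 0.608; adjusted p = 0.00966), +24.9 kb (1.69 ± 0.420; adjusted p = 0.00897) and +40.1 kb (2.19 ± 0.472; adjusted p = 0.00304). Adult crypt had no peak in any library at the first 3 of these and 1 peak at the fourth. Over all tested regions 4.47% were higher. With absent peaks set to the floor all 4 were called, at 1.63, 1.03, 0.82 and 1.19. No HoxD region differed from villus or crypt in adult mice, with 0 of 5 also at an unadjusted limma p under 0.05.

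In geriatric mice, 0 of the 12 Hox regions differed between proximal colon and villus by limma, and 0 had an unadjusted p under 0.05, where 18.1% of all regions were called. Against geriatric crypt 0 were called and 1, HoxA +50.6 kb, had an unadjusted p under 0.05, lower in colon (-1.71 ± 0.798, limma adjusted p = 0.173), where 14.7% of all regions were called. The single Hox peak of the geriatric proximal colon was at HoxA +1.5 kb. Whether the regional difference itself changed between adult and geriatric mice was tested, and no Hox region passed, where 5.99% of all regions were called with villus and 3.66% with crypt. At an unadjusted limma p under 0.05 there were 2 Hox regions with villus and 4 with crypt. The shares above are at the adjusted threshold, and the share of all regions at the unadjusted one was not counted. At HoxA +40.1 kb the change was -2.01 ± 0.708 against villus (log2, SE; limma adjusted p = 0.109) and -2.19 ± 0.708 against crypt (adjusted p = 0.106).

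Villus and crypt did not differ at any Hox region by limma in adult or geriatric mice, where 13.0% and 13.3% of all regions were called. Villus and crypt libraries were not paired in these tests, and whether any came from the same mouse is not given. In adults 1 region, HoxA +20.4 kb, had an unadjusted p under 0.05, lower in crypt (-1.36 ± 0.608 log2, SE; limma adjusted p = 0.165), and it was called when adult villus 3 was left out (-2.04, adjusted p = 0.0227). In geriatric mice 0 had an unadjusted p under 0.05. At HoxA +50.6 kb the peak was present in 6 of 6 crypt and 2 of 6 villus libraries, and the crypt minus villus difference was 1.13 ± 0.714 in adults (limma adjusted p = 0.405) and 0.92 ± 0.714 in geriatric mice (adjusted p = 0.484). The pileups of the 2 villus libraries were above those of all 6 crypt libraries.

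Colon groups of different ages were compared pair by pair, with the share of all regions called given beside each. From juvenile to adult colon HoxA +24.9 kb was higher (1.69 ± 0.420 log2, SE; limma adjusted p = 0.0225) and HoxD +40.6 kb lower (-1.77 ± 0.333; adjusted p = 0.00251). Over all regions 6.05% were called higher and 0.275% lower. At HoxD +40.6 kb the 3 juvenile colon libraries were at 0.397 to 0.564 and the 3 adult ones at 0, whose floors are 0.288 to 0.385 per M, so the juvenile values stand close above what adult libraries could show. With absent peaks set to the floor, HoxA +24.9 kb was called (0.92, limma adjusted p = 0.00697) and HoxD +40.6 kb was not. The count fell to 1 without any one of the juvenile colon libraries, adult colon 2 or adult colon 3. HoxA +1.5 kb and HoxA +40.1 kb had differences of 0.60 ± 0.70 and 0.51 ± 0.472 (limma adjusted p = 1 and 0.971).

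At HoxD +40.6 kb the contrast of regional differences between adult and juvenile mice passed the threshold. All adult villus, adult crypt and juvenile duodenum libraries were at 0 there. Its value is therefore the adult minus juvenile colon difference again and no separate result. The regional difference was 1.77 in juvenile mice and 0 in adults against villus or crypt, a change of -1.77 ± 0.470 (log2, SE; limma adjusted p = 0.0156 with villus and 0.0146 with crypt). In these contrasts 2.3% and 2.36% of all regions were called lower. With absent peaks set to the floor the changes were -0.24 and -0.33 (adjusted p = 0.642 and 0.570).

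Geriatric proximal colon was lower than adult colon at HoxA +20.4 kb (-2.42 ± 0.679 log2, SE; limma adjusted p = 0.0221), HoxA +24.9 kb (-1.69 ± 0.470; adjusted p = 0.0208) and HoxA +40.1 kb (-2.70 ± 0.527; adjusted p = 0.00209), where 13.7% of all regions were lower. Both geriatric libraries were at 0 at all 3. The pileup at regions shared by all libraries was also lower in geriatric proximal colon, 0.471 and 1.02 against 2.182 to 2.52 in adult colon, and its part in these differences was not tested. After scaling to those shared regions the count was 2. It was 1 without adult colon 2, adult colon 3 or geriatric proximal colon 3. Against juvenile colon, HoxD +40.6 kb was lower (-1.77 ± 0.372; limma adjusted p = 0.0212), where 0.882% of all regions were lower, and this count was 0 without juvenile colon 1, juvenile colon 2 or either geriatric library and 2 without any one adult villus library or adult crypt 3.

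**Figure D4:**
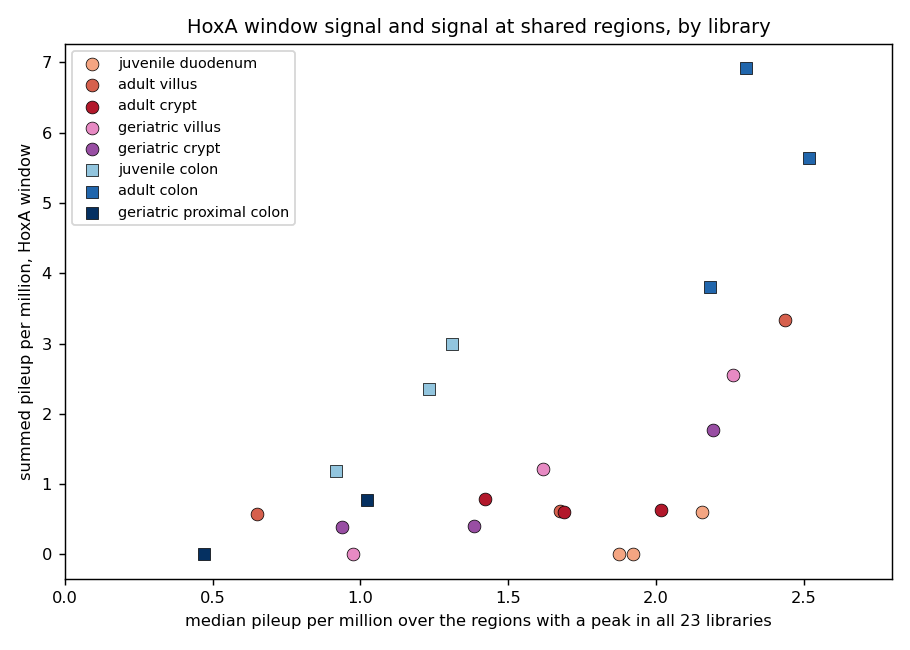
Summed pileup per M in the HoxA window (y axis) against the median pileup per M at the 5226 regions with a peak in all 23 libraries (x axis), 1 point per library, squares for colon and circles for duodenum. Juvenile colon lies at 1.19 to 3.00 on the y axis with 0.919 to 1.31 on the x axis, and the 2 geriatric proximal colon libraries, at 0 and 0.779 on the y axis, lie below every other colon library on that axis.

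In the duodenum, HoxD +6.8 kb was lower in adult villus than in juvenile duodenum (-1.35 ± 0.462 log2, SE; limma adjusted p = 0.0439), where 12.9% of all regions were lower, and the call was lost without any one of 17 libraries. Juvenile duodenum was whole epithelium and the adult libraries were villus or crypt fractions, so age and fraction cannot be told apart in comparisons with it. Adult crypt against juvenile duodenum gave 0 Hox regions, where 20.1% of all regions were called, and 0 HoxA or HoxD regions had an unadjusted limma p under 0.05. Geriatric against adult villus and geriatric against adult crypt gave 0 Hox regions each, where 0.718% and 0.531% of all regions were called at the adjusted threshold. At an unadjusted p under 0.05 there were also 0 Hox regions in each, and the share of all regions was not counted.

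The stretch of equal length beside the HoxA window, towards the anterior HoxA genes, was compared to see how far the colon signal reached. It held 15 regions, 9 of them tested, with 40 peaks in colon and 43 in duodenum. By limma, 3 of the 9 were higher in colon, at 1.80, 0.85 and 1.35 (adjusted p = 0.000275, 0.00600 and 3.7e-05). The last of them was also called by presence, in 5 colon and 0 duodenal libraries (Fisher's exact test, adjusted p = 0.0214). Adult colon was higher than villus at 5 of the 9, and at 2 of the 7 posterior HoxA regions (4.42% of all regions). Against crypt it was higher at 3 of the 9 and 4 of the 7 (4.47% of all). Geriatric proximal colon was lower than adult colon at 3 of the 9 and 3 of the 7 (13.7% of all). The posterior window was thus not alone in holding regions higher in colon or differing between colon groups, and no difference between the 2 stretches was tested. The stretch beside the HoxD window, towards the anterior HoxD genes, held 9 regions, 4 of them tested and 0 called by limma, with 0 at an unadjusted p under 0.05.

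The authors' deposited lists of differential regions, 28 lists for 14 comparisons, held 5 of the 23 Hox regions in 6 lists. In the authors' deposited table for adult colon over adult crypt, HoxA +1.5, +20.4, +24.9 and +40.1 kb were listed, the 4 called here. In the authors' deposited table for adult colon over adult villus, HoxA +1.5, +20.4 and +40.1 kb were listed, and of these HoxA +40.1 kb was called here, while HoxA +24.9 kb was called here and not listed. In the authors' deposited table for juvenile colon over juvenile duodenum, HoxA +1.5, +20.4 and +40.1 kb and HoxD +40.6 kb were listed, of which all but HoxA +20.4 kb were called here. HoxD +40.6 kb also stood in the authors' deposited table for juvenile over adult colon. HoxA +20.4 kb was in the authors' deposited table for juvenile colon over geriatric proximal colon, and HoxA +1.5 kb in that for geriatric proximal colon over geriatric crypt, and neither was called here. Other calls made here stood in none of the authors' deposited tables for the same comparison: the 3 regions lower in geriatric proximal than in adult colon, HoxA +24.9 kb higher in adult than in juvenile colon, HoxD +40.6 kb lower in geriatric proximal than in juvenile colon, and HoxD +6.8 kb in both of its comparisons. Since those lists come from the libraries tested here, they lend a direction no separate support.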

How the data were processed

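Peaks were called by the authors on each library alone with MACS2 2.1.0.20150731 without a control, per the file headers, with a q cutoff of 0.05, 1 read kept per position and an extension of 68 to 210 bp set per library. The deposited pileup is an unscaled signal, and each peak also carries the authors' −log10 p and −log10 q and a deposited fold enrichment ratio over local background, used only to describe or filter peaks. The submitters' processing notes name mm9, DiffBind, Picard 2.18.27, deepTools, SAMtools 0.1.19, Bowtie2, bedtools 2.17.0 and cutadapt 1.9.1, without roles. Any shift of reads beyond the headers is not given in these sources.

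Peaks were merged at an overlap of at least 1 bp. Pileups were divided by M kept reads. limma 3.58.1 (R 4.3.3), with 1 mean per group, a variance trend and no replicate block, was fitted to 85469 regions, and two-sided Fisher's exact tests compared presence in 8 colon and 15 duodenum libraries. The fit was also run on simulated Poisson pileups without added spread between libraries, with changes placed only in regions of higher mean pileup. That run does not show how the fit behaves at weak regions such as most of these. By rule, up to 8 regions per window, those with a peak in the most libraries, were described singly. Members, windows and tests were chosen with earlier results of these data known. No mm9 annotation was used, so regions were placed on no gene and markers of duodenum, colon or other cells were not looked up. Whether libraries came from separate animals is not given for each, so p-values measure the spread between libraries, which may be technical.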

Additional observations from a re-analysis of the deposited data

Results flagged for a closer look

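The regional difference at HoxD +40.6 kb (chr2:74535650-74536585) was flagged for a change between adult and juvenile mice. Colon minus villus or whole duodenum changed by -1.773 ± 0.4705 (log2, SE; limma adjusted p = 0.01557), and colon minus crypt or whole duodenum by -1.773 ± 0.4705 (adjusted p = 0.01456). The 2 contrasts share the colon and the juvenile libraries. Every duodenal library in them was at 0, so both restate the adult minus juvenile colon difference. The values behind both were 0.397 to 0.564 per M in juvenile colon and 0 in adult colon, adult villus, adult crypt and juvenile duodenum. The calls were kept without each of the 23 libraries and lost when absent peaks were set to the floor, and with regions merged from summits (-1.17, limma adjusted p = 0.219 and 0.220).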

How the results depend on the processing

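The 13 alternatives, 2 of them chosen after seeing the data (regions merged from summits, and no geriatric proximal colon group), and leaving out each of the 23 libraries gave 1038 values for 30 results. Of these, 921 stayed close to the main value, meaning within 1.5 times for a count of regions, whichever regions it held, and the same sign and side of the threshold for a single region. HoxA +1.5 kb kept its colon call in every one of these. Counts of Hox regions called moved as follows. With lists of equal length they were 1 for colon against duodenum, 1 in juvenile mice, 1 for adult colon against villus, 1 against crypt, 0 for adult against juvenile colon, 1 for geriatric proximal against adult colon, 0 for adult villus against juvenile duodenum and 1 for presence. With absent peaks at the floor they were 1 in juvenile mice, 1 for adult against juvenile colon, 0 for geriatric proximal against juvenile colon and 0 for adult villus against juvenile duodenum. Geriatric proximal against juvenile colon gave 2 with a pseudocount of 0.05, with scaling to shared regions, with summed pileups and with no variance trend, and 0 with a pseudocount of 1. Adult villus against juvenile duodenum gave 0 with no filter. Peaks with −log10 q of at least 5 and regions merged from summits each gave 1 for adult crypt against juvenile duodenum and 1 for presence. Without the geriatric proximal colon group the counts were 5 for colon against duodenum, 0 for adult villus against juvenile duodenum and 1 for presence.

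Leaving out 1 library, counts ran from 2 to 4 for colon against duodenum, 3 to 4 in juvenile mice, 3 to 4 for adult colon against crypt, 1 to 4 for adult colon against villus, 0 to 1 for adult crypt against villus, 1 to 2 for adult against juvenile colon, 0 to 2 for geriatric proximal against juvenile colon, 1 to 4 for geriatric proximal against adult colon, 0 to 1 for adult villus and for adult crypt against juvenile duodenum, and 0 to 1 for presence. Adult crypt against juvenile duodenum gave 1 without juvenile duodenum 1 or adult crypt 1. Adult villus against juvenile duodenum gave 0 without juvenile duodenum 2 or 3, adult villus 1 or 2, any geriatric villus, geriatric crypt 2 or 3, or any colon library.

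The sign at HoxA +50.6 kb turned with absent peaks at the floor (0.0008383) and without the geriatric proximal colon group (0.2507). At HoxA +68.7 kb it turned at the floor (-0.004845) and ranged from -0.01866 to 0.1327 over left-out libraries. The cause of these changes was not tested.

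Of 77 same-numbered pairs of libraries of different groups, 10 had a correlation of deviations over 0.1 (median 0.0152, -0.0751 to 0.353), against 1 of 154 pairs with different numbers (median -0.00605). A library correlated best with its own number in 77 of 154 comparisons with another group, and 0 of 23 libraries did so in all of theirs. Not every same-numbered pair was over 0.1, so the numbers were not taken as pairs, though same-numbered pairs passed 0.1 more often. This rule cannot exclude that same-numbered libraries, such as villus and crypt, came from the same mice, which the labels do not give. The main limma fit and the presence tests treat all libraries as separate, so their p-values may be off if animals were shared. With a replicate block the count was 3 for colon against duodenum, with HoxA +20.4 kb called (0.82, limma adjusted p = 0.0430) and HoxD +40.6 kb not (0.45, adjusted p = 0.0550), 3 for adult colon against villus, with HoxA +1.5 kb added (1.83, adjusted p = 0.0383), and 0 for adult villus against juvenile duodenum. Peaks of 6 to 58 reads limit what any library could show.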
